A study of Mus musculus with 12 samples.

Results

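The genes described here encode the proteasome of the mouse heart: the subunits of its core and regulatory particles, the inducible subunits of the immunoproteasome, the activators, the inhibitor and the assembly chaperones. A gene was a member if its symbol began with Psm, a letter from a to g and a number, and did not name a pseudogene copy, which gave 50 of the 53801 genes in the deposited files. Psmc3ip and Psme2b match by symbol alone: Psmc3ip encodes a partner protein of a 19S ATPase that works in meiotic recombination, and Psme2b is a near copy of Psme2.

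RNA of whole hearts was sequenced from C57BL/6N mice, which in this study underwent surgery as adult males. In the acute myocardial infarction (AMI) groups the left anterior descending coronary artery was tied off with a suture, and hearts were taken on day 1 or on day 7. The third group is labelled sham, and its operation and day are not described further in the sources used here. Each of the 3 groups held 4 hearts, with 1 library per heart.

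The proteasome is the protease that degrades proteins tagged with ubiquitin. Its barrel-shaped core, the 20S particle, is made of outer rings of alpha subunits and inner rings of beta subunits, and the proteolytic sites sit in a few of the beta subunits. The 19S regulatory particle caps the barrel, recognizes ubiquitin chains, removes them and unfolds the substrate with its ATPases. Interferon-gamma induces alternative catalytic subunits, encoded by Psmb8, Psmb9 and Psmb10, that take the places of those encoded by Psmb5, Psmb6 and Psmb7 in newly built cores, and this immunoproteasome is the standard form in leukocytes, where it supplies peptides to MHC class I. In heart muscle the proteasome turns over sarcomere proteins and damaged proteins.

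Total counts were 24558117, 26573727, 23253576 and 24806576 in sham replicates 1 to 4. They were 25541858, 32166517, 30158419 and 29994671 in day 1 replicates 1 to 4. In day 7 replicates 1 to 4 they were 28738082, 23204551, 24597384 and 25134239. At these depths 3 counts, taken as the limit that a count of 0 allows, corresponded to between 0.0933 and 0.129 CPM (counts scaled to the library total), for counting error alone. Psmb11, the thymus-specific catalytic subunit, had a count of 0 in every heart, and the other 49 members passed the filter on low counts and were tested.

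Some libraries stood apart. Sham replicate 1 had 27.4% of its counts on the mitochondrial genome, against 17.9% to 21.5% in the other sham hearts, and was the lowest of its group in TPM (a transcript level per length, scaled to the library) for 32 of the 49 detected members. Day 1 replicate 4 was the highest of its group for 33 members. Day 7 replicate 4 had the highest TPM of the whole series for Psmb8, Psmb9, Psmb10, Psme1 and Psme2, and several results are also given without it. Sham replicate 2 had 15170 TPM over 5 erythroid markers, against 1617 to 3635 in the other sham hearts. The mean mitochondrial share was 21.4% ± 4.29 (SD, n = 4) in sham, 14.8% ± 1.78 on day 1 and 16.1% ± 2.64 on day 7. With mitochondrial genes left out of the fit, 13 members were higher and 2 lower on day 1, beside 21.9% and 19.8% of all genes, and 3 were higher and 32 lower on day 7 against sham, beside 30.8% and 28.4%. Between the days 0 members were then higher, in place of 1, and 37 lower, beside 24.1% and 22.8%.

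The groups also differed in how counts were spread over genes, so that the choice of scaling shifts all genes together. The TMM factors of edgeR, which rescale each library to its bulk of genes, were 0.781 to 0.917 in sham, 1.01 to 1.06 on day 1 and 1.10 to 1.17 on day 7. With them the median log2 fold change of all 15306 tested genes was −0.01 on day 1 against sham, 0.03 on day 7 against sham and 0.02 on day 7 against day 1. With library size alone these medians were 0.26, 0.43 and 0.15, and with limma on log2(TPM + 1) they were 0.23, 0.44 and 0.18. Fold changes below are TMM-normalized unless stated, and levels in TPM carry the shift of that scale. In TPM every day 1 heart lay above every sham heart for 37.6% of all tested genes and for 37 of 49 members. Every day 7 heart lay above every sham heart for 8424 of the 15306 tested genes and for 21 of 49 members. The reverse held for 794 tested genes and 0 members. Against day 1, every day 7 heart lay above for 5129 tested genes and 5 members, and below for 1281 and 24.

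The members' median lay on the same side of the median of all genes under each of 10 scalings and fits, 9 run on all 12 hearts and 1 on only the groups compared. A size factor shifts all genes of a library together, so settings that differ mainly in size factors can hardly move this difference. Their agreement was fixed in advance and adds no separate evidence. The members' median minus that of all genes was 0.14 on day 1 against sham with TMM and 0.12 to 0.19 over the 10 settings. On day 7 against sham it was −0.34 with TMM, and −0.35 to −0.20 over the settings. Between day 7 and day 1 it was −0.45 with TMM, and −0.46 to −0.36 over the settings. The members' own median on day 7 against sham was −0.32 with TMM and changed sign, to 0.08, with library size alone and to 0.23 with log2(TPM + 1).

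**Figure D1:**
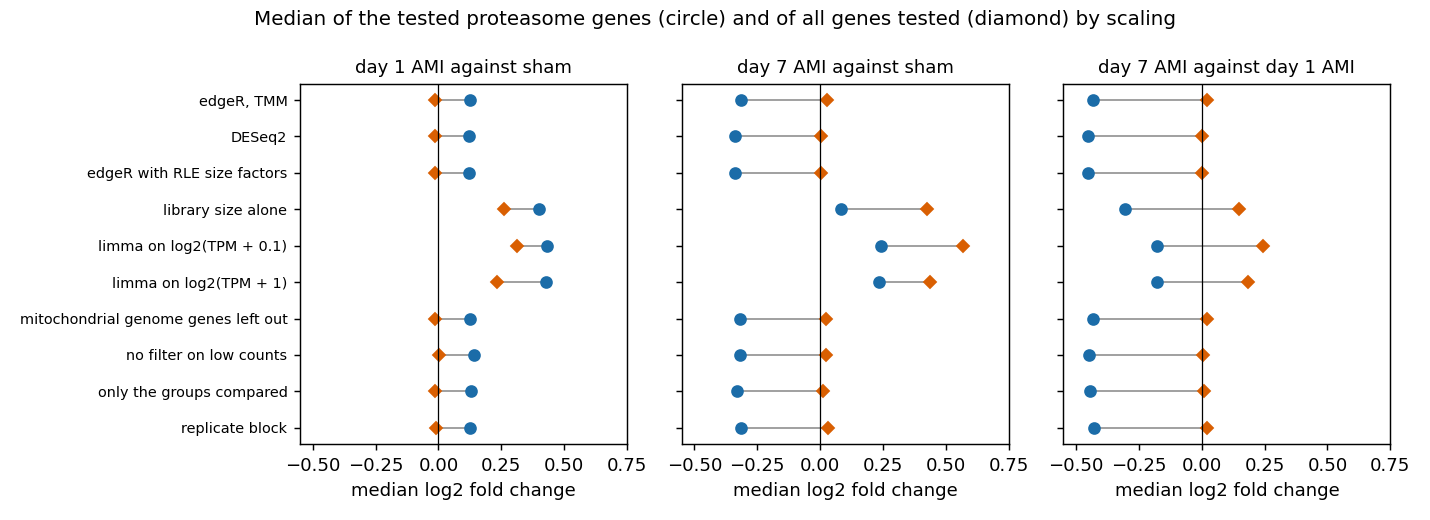
Median log2 fold change (horizontal axis) of the 49 tested proteasome genes (circles) and of all tested genes (diamonds) under 10 settings (vertical axis), 1 panel per comparison. The circle lies right of the diamond on day 1 against sham and left of it in both comparisons of day 7, while its own sign on day 7 against sham flips from −0.32 with TMM to 0.08 with library size alone.

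The first comparison, day 1 of AMI against sham, asks what the acute phase of infarction does to these transcripts. Psmb8 rose to 1.94 times its sham level, and the genes for the lid deubiquitinase Psmd14 and the assembly chaperone Psmg3 rose to 1.49 and 1.77 times. Psmb5, Psmb6 and Psmb7 did not pass the test, at 1.16, 1.06 and 1.02 times. The activator Psme4 and the inhibitor Psmf1 fell, to 0.752 and 0.794 times. At a false discovery rate (FDR) under 0.05 in edgeR, 13 of 49 members were higher, beside 22.0% of all tested genes, and 2 were lower, beside 19.9% of all.

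A fold change of 2 or more was required on top of the FDR for a gene to count as differentially expressed, as the study does. No member met this on day 1 in edgeR: 0 were higher, beside 7.79% of all tested genes, and 0 were lower, beside 2.98% of all. Without adjustment, 17 members were higher and 2 lower at p under 0.05, beside 3940 and 3759 of the 15306 tested genes. DESeq2 called 14 members higher and 2 lower, 0 of them past the fold, beside 22.5% and 21.0% of all genes. Without sham replicate 2 the edgeR count of higher members past the fold was 1. The lower count was 1 in place of 2 without sham replicate 1 or 4, or without day 1 replicate 1, 2 or 3. Of all genes 15.1% to 18.2% were lower in these fits. With library size alone 36 members were higher and 0 lower, and with limma on log2(TPM + 1) 38 were higher and 0 lower. On these scales 41.1% and 40.3% of all genes were higher, and 6.93% and 4.82% lower.

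The second comparison, day 7 against sham, addresses the healing heart. Psmb8 and Psmb9 rose to 2.12 and 2.33 times their sham levels and Psmb10 to 1.38 times, while Psmb5, Psmb6 and Psmb7 fell to 0.602, 0.612 and 0.576 times with TMM. Most ring, ATPase and lid genes also fell with TMM. In edgeR 3 of 49 members were higher, beside 30.9% of all tested genes, and 31 were lower, beside 28.4% of all. Past the fold of 2, 2 members were higher, beside 15.3% of all, and 0 were lower, beside 5.88% of all.

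At an unadjusted p under 0.05, 3 members were higher and 33 lower on day 7 against sham, beside 5051 and 4662 of the 15306 tested genes. DESeq2 called 3 and 33, with 0 lower past the fold, beside 30.04% and 30.02% of all genes. Without day 7 replicate 4 the counts were 2 higher and 30 lower, beside 28.5% and 25.6% of all genes. Past the fold, 0 members were then higher in place of 2. The split turned with the scaling: library size alone gave 12 higher and 3 lower, and limma on log2(TPM + 1) gave 24 higher and 0 lower. Of all genes 53.8% and 61.6% were then higher, and 10.8% and 6.68% lower.

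The third comparison, day 7 against day 1, tests the change between the acute and the healing stage. Psmb5, Psmb6 and Psmb7 fell to 0.517, 0.577 and 0.565 times their day 1 levels, and Psmg3 to 0.505 times. In edgeR 1 of 49 members was higher, beside 24.2% of all tested genes, and 37 were lower, beside 22.8% of all. The member called higher was Psmb9. Past the fold of 2, 0 were higher, beside 8.55% of all, and 0 were lower, beside 2.69% of all.

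At an unadjusted p under 0.05, 1 member was higher and 38 lower between day 7 and day 1, beside 4262 and 3988 of the 15306 tested genes. DESeq2 called 1 and 38, with 1 lower past the fold, beside 23.8% and 24.8% of all genes. In edgeR the count lower past the fold was 1 without day 1 replicate 3 or 4 and 2 without day 7 replicate 1. The count of higher members was 0 without any 1 sham heart, without day 1 replicate 1, 3 or 4, or without day 7 replicate 4. Of all genes 21.1% to 24.5% were higher in these fits. Library size alone gave 1 higher and 29 lower, and limma on log2(TPM + 1) gave 4 higher and 20 lower, where 31.2% and 35.3% of all genes were higher and 14.2% and 8.51% lower. The comparisons against sham share their sham hearts, so their values are given side by side only.

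**Figure D2:**
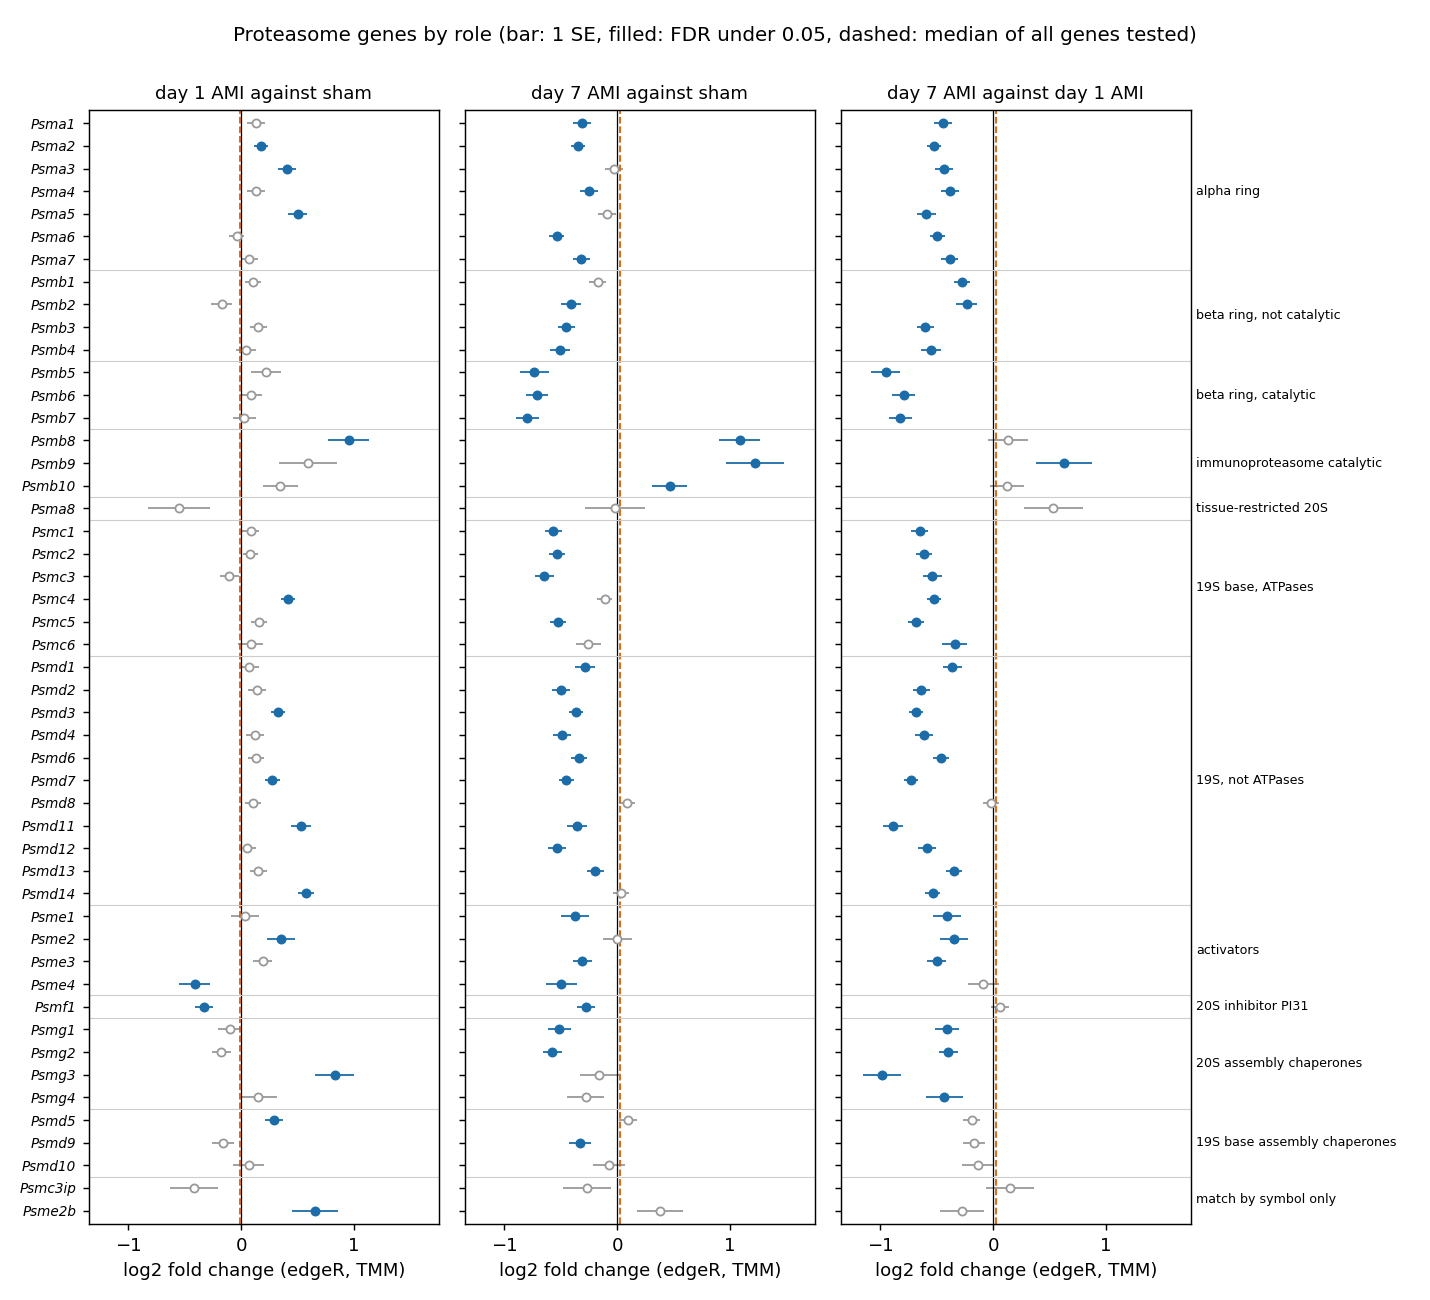
Log2 fold change (horizontal axis, edgeR with TMM) of each of the 49 tested genes (vertical axis, grouped by role) in the 3 comparisons. Points are estimates, bars 1 SE, filled points have an FDR under 0.05, and the dashed line is the median of all tested genes. On day 7 against sham Psmb8, Psmb9 and Psmb10 lie right of 0 and Psmb5, Psmb6 and Psmb7 left of it, at −0.73, −0.71 and −0.80, and most other filled points left of 0 change sign with scaling on TPM.

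The immunoproteasome comes first. Psmb8 (ENSMUSG00000024338, chromosome 17, 34197721 to 34201454, forward strand, GRCm38) encodes the inducible subunit that replaces the chymotrypsin-like Psmb5 product. Psmb8 stood at 12.1, 17.9, 15.5 and 15.6 TPM in sham replicates 1 to 4, at 38.8, 37.5, 35.9 and 38.2 TPM on day 1, and at 47.1, 43.0, 39.0 and 83.0 TPM on day 7. All 4 day 1 hearts lay above all sham hearts, the day 7 hearts lay above both groups, and day 7 replicate 4 was far above its group. On this scale 8424 of the 15306 tested genes also had every day 7 heart above every sham heart. The mean of Psmb8 was 15.3 TPM ± 2.39 (SD, n = 4) in sham, 37.6 ± 1.27 on day 1 and 53.0 ± 20.3 on day 7.

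The log2 fold change of Psmb8 was 0.95 (SE 0.181, edgeR FDR 0.000973) on day 1 and 1.08 (SE 0.181, FDR 0.00014) on day 7 against sham. Between day 7 and day 1 it was 0.13 (SE 0.175, FDR 0.559). Without day 7 replicate 4 the day 7 value against sham was 0.82 (FDR 6.3e-05), still called and no longer past the fold of 2, and the value between day 7 and day 1 was −0.13 (FDR 0.4).

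Psmb9 (ENSMUSG00000096727, chromosome 17, 34181987 to 34187764, reverse strand) encodes the inducible subunit that replaces the caspase-like Psmb6 product and lies beside Tap1 in the MHC region. Psmb9 stood at 8.16, 9.38, 6.30 and 6.44 TPM in sham replicates 1 to 4, at 12.2, 15.4, 11.4 and 14.4 TPM on day 1, and at 18.2, 19.2, 20.9 and 51.4 TPM on day 7. The 3 groups did not overlap on this scale, and day 7 replicate 4 again stood far above its group. Mean levels were 7.57 TPM ± 1.47 (SD, n = 4) in sham, 13.4 ± 1.87 on day 1 and 27.4 ± 16.0 on day 7.

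On day 1 the log2 fold change of Psmb9 was 0.59 (SE 0.256, edgeR FDR 0.0772), which did not pass with TMM and all hearts. It passed in DESeq2 (0.59, FDR 0.0490), with library size alone (0.86, FDR 0.0176), with log2(TPM + 1) (0.75, FDR 0.0336), with no filter on low counts and with only the groups compared. It also passed without day 7 replicate 4 (FDR 0.00169), whose spread enters the shared estimate, and its FDR was 0.00169 to 0.180 over all alternatives. On day 7 against sham Psmb9 rose by 1.22 (SE 0.256, FDR 0.0009), and by 0.78 (FDR 0.000166) without day 7 replicate 4.

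Between day 7 and day 1, Psmb9 rose by 0.63 (SE 0.246, FDR 0.0499), next to the threshold. This call was lost without day 7 replicate 4 (0.19, FDR 0.239). It was also lost without sham replicates 1 (0.62, FDR 0.0624), 2 (0.62, FDR 0.0554), 3 (0.62, FDR 0.0583) or 4 (0.62, FDR 0.0596). Leaving out day 1 replicates 1 (0.58, FDR 0.111), 3 (0.59, FDR 0.106) or 4 (0.62, FDR 0.0900) ended it as well. Over all alternatives the FDR was 0.0184 to 0.239.

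Psmb10 (ENSMUSG00000031897, chromosome 8, 105935735 to 105938444, reverse strand) encodes the inducible subunit that replaces the trypsin-like Psmb7 product. Psmb10 stood at 52.5, 81.1, 69.2 and 57.1 TPM in sham replicates 1 to 4, at 106.7, 90.4, 106.9 and 103.9 TPM on day 1, and at 102.3, 109.3, 108.2 and 189.9 TPM on day 7. Both AMI groups lay above sham and overlapped each other, with day 7 replicate 4 highest. The mean was 65.0 TPM ± 12.9 (SD, n = 4) in sham, 102.0 ± 7.85 on day 1 and 127 ± 41.8 on day 7, so that Psmb10 was the most abundant of the 3 inducible genes per length in each group.

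The log2 fold change of Psmb10 was 0.35 (SE 0.154, edgeR FDR 0.086) on day 1 against sham. It passed the test without day 7 replicate 4 (FDR 0.019), with only the groups compared (FDR 0.0238), with library size alone (0.61, FDR 0.00949) and with log2(TPM + 1) (0.66, FDR 0.0105). The range of its FDR over the alternatives was 0.00949 to 0.203. On day 7 Psmb10 rose by 0.47 (SE 0.154, FDR 0.0175), a call lost without day 7 replicate 4 (0.26, FDR 0.0649) or without sham replicate 1 (0.39, FDR 0.0572). Between day 7 and day 1 the value was 0.12 (FDR 0.538), and it was −0.08 without day 7 replicate 4.

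The constitutive catalytic genes took another course. Psmb5 (ENSMUSG00000022193, chromosome 14, 54614119 to 54618022, reverse strand) encodes the chymotrypsin-like subunit. Psmb5 stood at 112.0, 200.4, 206 and 168 TPM in sham replicates 1 to 4, at 251, 234, 229 and 273 TPM on day 1, and at 172, 131, 151 and 142 TPM on day 7. The day 1 hearts lay above every other heart, and day 7 overlapped sham, where replicate 1 was lowest. In TMM-normalized CPM, the scale of the test, day 7 ran from 52.8 to 67.2 and sham from 70.4 to 114, without overlap.

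The log2 fold change of Psmb5 was 0.22 (SE 0.129, edgeR FDR 0.189) on day 1 against sham, and 0.56 (FDR 0.0135) with log2(TPM + 1), in an FDR range of 0.0127 to 0.488. On day 7 it fell by 0.73 (SE 0.130, FDR 0.000235) against sham and by 0.95 (SE 0.130, FDR 5.44e-05) against day 1. With library size alone the value against sham on day 7 was −0.35 (FDR 0.0607) and with log2(TPM + 1) −0.17 (FDR 0.364), neither called, while the FDR over all alternatives ran from 2.08e-07 to 0.364.

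Psmb6 (ENSMUSG00000018286, chromosome 11, 70525367 to 70527858, forward strand) encodes the caspase-like subunit and was the most abundant of the 6 exchangeable catalytic genes per length in each group. Psmb6 stood at 170.3, 252, 253 and 212 TPM in sham replicates 1 to 4, at 296, 276, 277 and 327 TPM on day 1, and at 225, 167, 199 and 196 TPM on day 7. Day 1 lay above both other groups, which overlapped each other. In TMM-normalized CPM day 7, at 55.8 to 72.8, lay below sham, at 88.7 to 116.

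The log2 fold change of Psmb6 was 0.08 (SE 0.0989, edgeR FDR 0.517) on day 1 against sham, and 0.42 (FDR 0.0183) with log2(TPM + 1), in an FDR range of 0.0174 to 0.940. On day 7 it fell by 0.71 (SE 0.0997, FDR 3.15e-05) against sham and by 0.79 (SE 0.0996, FDR 2.73e-05) against day 1. With log2(TPM + 1) the value against sham on day 7 was −0.16 (FDR 0.275), within an FDR range of 6.82e-11 to 0.275 over the alternatives.

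Psmb7 (ENSMUSG00000026750, chromosome 2, 38588036 to 38644087, reverse strand) encodes the trypsin-like subunit. Psmb7 stood at 149.6, 205, 222 and 199.6 TPM in sham replicates 1 to 4, at 248, 246, 226 and 263 TPM on day 1, and at 187, 137, 167 and 159.8 TPM on day 7. Again day 1 was highest, and day 7 overlapped sham in TPM but not in TMM-normalized CPM, at 78.1 to 103.9 against 133.7 to 175 in sham.

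The log2 fold change of Psmb7 was 0.03 (SE 0.101, edgeR FDR 0.852) on day 1 against sham, and 0.35 (FDR 0.0319) with log2(TPM + 1), in an FDR range of 0.0306 to 0.9325. On day 7 it fell by 0.80 (SE 0.102, FDR 1.36e-05) against sham and by 0.82 (SE 0.102, FDR 2.37e-05) against day 1. With log2(TPM + 1) the value against sham on day 7 was −0.25 (FDR 0.0897), at the upper end of an FDR range of 4.28e-13 to 0.0897. The falls of Psmb5, Psmb6 and Psmb7 between day 1 and day 7 were called under every setting run, and with log2(TPM + 1) they were −0.73, −0.58 and −0.60.

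**Figure D3:**
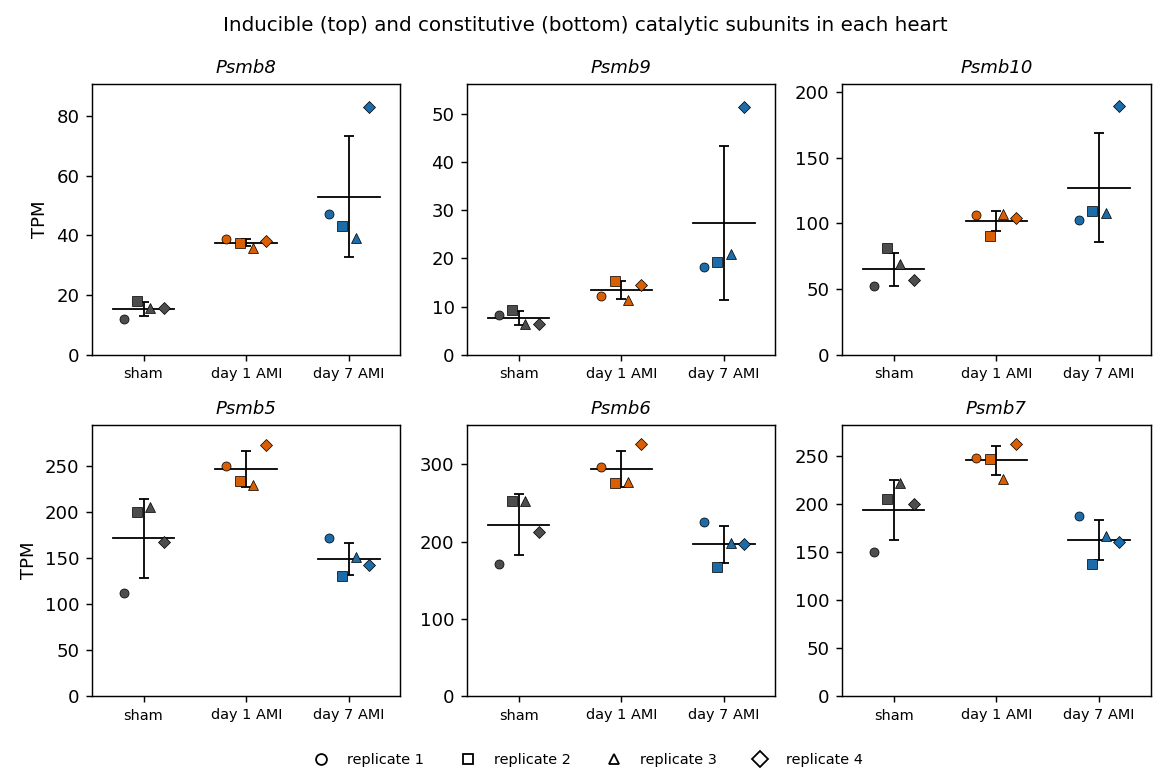
TPM (vertical axis) of the inducible genes Psmb8, Psmb9 and Psmb10 (top) and the constitutive genes Psmb5, Psmb6 and Psmb7 (bottom) by group (horizontal axis), where each point is a heart, its shape the replicate number, the line the mean and the bar 1 SD. Psmb8 runs from 12.1 to 17.9 in sham and from 39.0 to 83.0 on day 7, and Psmb5 peaks on day 1 at 229 to 273, while its day 7 fall against sham is called with TMM and not with log2(TPM + 1).

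Some counts of these genes are uncertain by position or sequence, because the handling of strand and of multiply mapping reads in counting is not given in the sources used here. Of the exon bases of Psmb8, 14.7% overlap the antisense gene Gm20496, whose count was at most 1. Psmb9 shares 5.79% of its exon bases with Tap1 on the opposite strand. Tap1 itself rose on day 7 against sham, by 0.99 without day 7 replicate 4, and its part in the Psmb9 count was not tested. Psmb7 shares 11.8% of its exon bases with Nek6, also on the opposite strand, which had 108 to 745 counts. Of the stretches of 75 bases in Psmb5, 36.8% also occur in other genes, mostly Gm3375, which had at most 2 counts, and 12.1% of its exon bases overlap Mir686 on its own strand.

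Promoters were read to see whether these genes share short motifs. The RefSeq promoter table (GRCm38.p6) had entries for 42 of the 50 members and none for Psmb7. In the 250 bases before each start, 4 motifs were searched on both strands: the antioxidant response element TGACNNNGC, the interferon-stimulated response element GAAANNGAAA, the gamma-activated site TTCNNNGAA and the CCAAT box CCAAT. TGACNNNGC was present in 5 of 42 members (Psmb5, Psmb6, Psmc6, Psmd9 and Psmd12), or 11.9%, and in 10.2% of all 32851 promoters. GAAANNGAAA was in 3 members (Psmb3, Psmd4 and Psmd9), or 7.14%, against 2.98% of all. TTCNNNGAA was in Psmb8 and Psmg1, or 4.76%, against 7.02% of all. CCAAT was in 15 members, or 35.7%, against 33.8% of all. Members were counted per gene, over 45 promoters of the 42 genes, while the shares of all are per promoter. A gene with more than 1 promoter had more chances of a match, so the units differ.

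Psmb8 carried the gamma-activated letters as TTCCCAGAA, 97 bases before its start, and Psmb9 carried CCAAT on the opposite strand, 8 bases before its start. None of the 4 motifs was in the window of Psmb10, which says only that these letters are not there. Psmb5 and Psmb6 carried TGACNNNGC 47 and 9 bases before their starts. The stretches below, from RefSeq, show an inducible gene beside a pair of constitutive genes that both fell between day 1 and day 7. They run 5′ to 3′ on the strand of the gene, hold the part of the window outside annotated exons, and mark TGACNNNGC in capitals. Psmb10 is chr8:105938445-105938642 on the reverse strand, Psmb5 is chr14:54618023-54618245 on the reverse strand, and Psmb6 is chr11:70525107-70525356 on the forward strand. A match is a description of letters and not a binding site.
Psmb10: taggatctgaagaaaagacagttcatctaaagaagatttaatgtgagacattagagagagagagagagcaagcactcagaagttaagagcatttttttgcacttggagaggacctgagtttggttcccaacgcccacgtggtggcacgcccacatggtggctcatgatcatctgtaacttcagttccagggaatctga
Psmb5: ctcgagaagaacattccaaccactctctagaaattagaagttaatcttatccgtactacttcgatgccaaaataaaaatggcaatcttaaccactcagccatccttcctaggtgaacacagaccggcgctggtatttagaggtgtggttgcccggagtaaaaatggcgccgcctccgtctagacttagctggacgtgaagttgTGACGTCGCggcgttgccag
Psmb6: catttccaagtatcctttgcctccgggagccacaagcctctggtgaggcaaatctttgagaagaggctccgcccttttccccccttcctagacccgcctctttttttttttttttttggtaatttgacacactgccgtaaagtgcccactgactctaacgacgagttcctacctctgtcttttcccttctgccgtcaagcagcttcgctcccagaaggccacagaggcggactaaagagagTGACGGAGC

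The balance between inducible and constitutive subunits was followed as log2 ratios of TPM, with 0.1 added to each level. The Psmb8 to Psmb5 ratio was −3.20, −3.48, −3.72 and −3.42 in sham replicates 1 to 4, −2.69, −2.64, −2.67 and −2.84 on day 1, and −1.86, −1.60, −1.95 and −0.77 on day 7. Each group lay wholly above the one before it. The difference from sham was 0.75 (SE 0.116) on day 1 and 1.91 (SE 0.289) on day 7, and day 7 exceeded day 1 by 1.16 (SE 0.272). In the exact two-sided permutation test of 4 hearts against 4, p was 0.0286 for each of these, the smallest this design can give, and 0.0367 after Benjamini-Hochberg adjustment over the 9 ratio tests. The day 7 differences were 1.65 from sham and 0.90 from day 1 without day 7 replicate 4. Without any 1 day 1 heart, the difference of day 1 from sham and that of day 7 from day 1 did not pass. Adjusted p was 0.0571 without day 1 replicate 2 and 0.0857 without replicates 1, 3 or 4. The differences stayed about as large, at 0.723 to 0.789 from sham and 1.12 to 1.18 between the days. With a heart left out, the adjustment covered only the ratio tests that involve its group.

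The Psmb9 to Psmb6 ratio was −4.37, −4.73, −5.31 and −5.02 in sham replicates 1 to 4, −4.59, −4.15, −4.59 and −4.49 on day 1, and −3.62, −3.11, −3.24 and −1.93 on day 7. Day 1 overlapped sham, and day 7 lay above both. The difference from sham was 0.40 (SE 0.226) on day 1, with an exact permutation p of 0.143 (adjusted 0.143), and it passed with TMM-normalized counts (0.495, adjusted p 0.0286). On day 7 it was 1.88 (SE 0.417) from sham and 1.48 (SE 0.380) from day 1, each with an exact permutation p of 0.0286 (adjusted 0.0367). The day 1 difference was 0.56 without sham replicate 1, with no overlap left, and passed (adjusted p 0.0343). Without sham replicate 3, the heart with the lowest ratio, it was smaller than with all hearts. Both day 7 differences were smaller without day 7 replicate 4, at 1.53 from sham and 1.13 from day 1. The difference of day 7 from day 1 did not pass without any 1 day 1 heart, at adjusted p of 0.0571 without replicate 2 and 0.0857 without 1, 3 or 4. It stayed about as large, at 1.44 to 1.58.

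The Psmb10 to Psmb7 ratio was −1.51, −1.33, −1.68 and −1.81 in sham replicates 1 to 4, −1.21, −1.45, −1.08 and −1.34 on day 1, and −0.87, −0.33, −0.62 and 0.25 on day 7. Day 7 replicate 4 was the only heart in which the inducible gene exceeded its constitutive partner in TPM, for any of the 3 pairs. The difference from sham was 0.31 (SE 0.129) on day 1, with an exact permutation p of 0.0857 (adjusted 0.0964), and it passed with TMM-normalized counts (0.31, adjusted p 0.0286). On day 7 it was 1.19 (SE 0.262) from sham and 0.88 (SE 0.253) from day 1, each with an exact permutation p of 0.0286 (adjusted 0.0367). Apart from the 0.1 added, a ratio is free of any factor common to all genes of a library, and it cannot say which of its genes moved. Leaving out day 7 replicate 4 gave day 7 differences of 0.98 from sham and 0.66 from day 1. With any 1 day 1 heart left out instead, the difference of day 7 from day 1 did not pass (adjusted p 0.0857). It stayed about as large, at 0.818 to 0.94.

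Summed over both sets, Psmb8, Psmb9 and Psmb10 made up 14.4%, 14.2%, 11.8% and 12.0% of the TPM of the 6 genes in sham replicates 1 to 4. On day 1 the share was 16.6%, 15.9%, 17.4% and 15.4%, and on day 7 it was 22.3%, 28.3%, 24.6% and 39.4%. The groups did not overlap in TPM, with means of 13.1% ± 1.39 (SD, n = 4), 16.3% ± 0.871 and 28.7% ± 7.60. In CPM per base of exon sham, at 11.3% to 13.6%, and day 1, at 13.2% to 16.6%, overlapped. The day 7 mean in TPM was 25.1% without day 7 replicate 4. No test was run on this share.

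**Figure D4:**
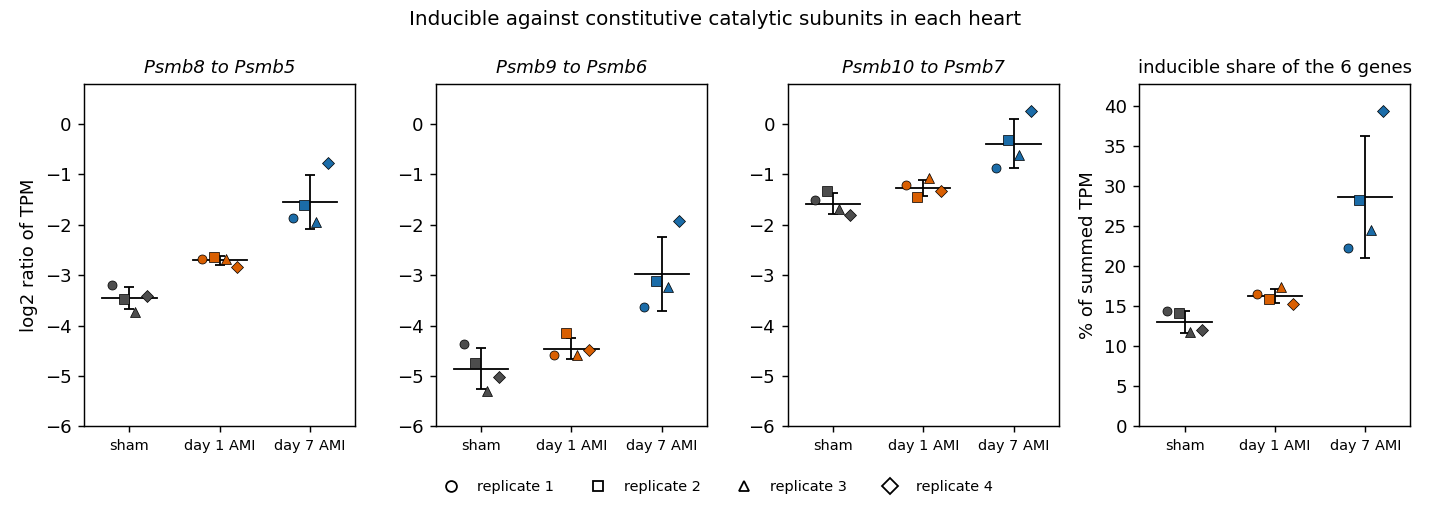
Log2 ratio of TPM of each inducible gene to its constitutive partner (3 left panels, vertical axis) and the inducible share of the summed TPM of the 6 genes in percent (right panel) by group (horizontal axis), where each point is a heart, the line the mean and the bar 1 SD. The share is 11.8% to 14.4% in sham, 15.4% to 17.4% on day 1 and 22.3% to 39.4% on day 7, and day 7 replicate 4 is highest in every panel.

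The outer rings of the core are built from 7 alpha subunits, which gate the entry to the chamber. On day 1 against sham 3 of 7 alpha genes rose and 0 fell in edgeR, beside 22.0% and 19.9% of all genes, where 3 and 0 passed without adjustment. All 7 rose with log2(TPM + 1), beside 40.3% of all genes. Psma5 rose by 0.50 (SE 0.0816, FDR 0.000352) and Psma3 by 0.40 (SE 0.0822, FDR 0.00158). The third was Psma2, at 0.17 (FDR 0.0378), which was named after its value was seen. Its call was lost without day 7 replicate 4 (0.17, FDR 0.0534), day 1 replicates 1 (FDR 0.0901), 2 (FDR 0.0577), 3 (FDR 0.0675) or 4 (FDR 0.0610), or sham replicates 1 (FDR 0.0578), 2 (FDR 0.0807) or 3 (FDR 0.0818), which leaves 2 of 7. The count was also 2 with no filter on low counts and with the replicate block. In TPM all 4 day 1 hearts lay above all sham hearts for all 7 alpha genes, and for 37.6% of all tested genes. Psma6 was −0.04 (FDR 0.650), and its sign turned to 0.28, called, with log2(TPM + 1). Of the stretches of 75 bases in Psma5, 35.2% also occur in other genes, mostly Gm8394, which had at most 5 counts.

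Set against sham, on day 7, 5 of 7 alpha genes fell and 0 rose with TMM, beside 28.4% and 30.9% of all genes, and 5 and 0 passed without adjustment, while 6 rose and 0 fell with log2(TPM + 1), beside 61.6% and 6.68% of all genes. Psma6 fell by 0.54 (SE 0.0667, FDR 1.08e-05) with TMM and was 0.02 with log2(TPM + 1), not called. Psma3 and Psma5 were −0.03 and −0.09 with TMM, not called, and rose by 0.50 and 0.46 with log2(TPM + 1). Across the days, day 7 against day 1, all 7 alpha genes fell with TMM, from −0.38 for Psma4 to −0.59 for Psma5, beside 22.8% of all genes, and 2 fell with log2(TPM + 1), beside 8.51%. Psma3 fell by 0.43, and was not called with log2(TPM + 1) (−0.21, FDR 0.0543), in a range of 1.28e-06 to 0.0569. Per length, Psma7 had the highest mean TPM of the ring in each group, at 159 ± 13.9 (SD, n = 4), 209 ± 12.7 and 187 ± 11.7, and Psma2 the lowest, at 39.4 ± 2.29, 51.9 ± 2.32 and 47.8 ± 1.54.

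The inner rings hold 4 beta subunits without a catalytic site, encoded by Psmb1 to Psmb4, which shape the chamber. On day 1 against sham 0 of 4 passed the test in edgeR, with or without adjustment and in either direction, at −0.17 for Psmb2 to 0.15 for Psmb3, beside 22.0% of all genes higher and 19.9% lower, and 3 rose with log2(TPM + 1), beside 40.3%. On day 7 Psmb4 fell by 0.51 (SE 0.0890, FDR 0.000201), Psmb3 by 0.45 (SE 0.0772, FDR 0.000176) and Psmb2 by 0.41 (SE 0.0910, FDR 0.00143) with TMM. With log2(TPM + 1) these 3 values were 0.15, 0.09 and 0.14, of the opposite sign and not called. Psmb1 was −0.17 (FDR 0.0501), called without day 7 replicate 1 (−0.21, FDR 0.0277) or sham replicate 2 (−0.22, FDR 0.0197). It was also called lower in DESeq2 (−0.20, FDR 0.0133), with RLE factors (−0.20, FDR 0.0289) and with mitochondrial genes left out (FDR 0.0490). Its sign turned with log2(TPM + 1), where it was called higher (0.37, FDR 0.000517), in an FDR range of 0.000517 to 0.143.

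Against day 1, on day 7, all 4 noncatalytic beta genes fell with TMM, by 0.60 for Psmb3, 0.55 for Psmb4 and 0.28 for Psmb1, beside 22.8% of all genes, and 1 fell with log2(TPM + 1), beside 8.51%. Psmb4 (−0.15, FDR 0.229) and Psmb1 (−0.05, FDR 0.5898) were not called with log2(TPM + 1), in FDR ranges of 1.34e-08 to 0.233 and 0.000152 to 0.597, and Psmb1 was also not called with library size alone (−0.15, FDR 0.105). Psmb2 fell by 0.23 (FDR 0.0467), and the sign turned to 0.02 with log2(TPM + 1). Its call was lost without day 1 replicates 1 (−0.21, FDR 0.112), 2 (−0.23, FDR 0.0823) or 3 (−0.20, FDR 0.122), day 7 replicates 1 (−0.20, FDR 0.115), 3 (−0.23, FDR 0.0825) or 4 (−0.24, FDR 0.0783), or sham replicate 4 (−0.24, FDR 0.0510). It was also lost with no filter on low counts (−0.25, FDR 0.0597), with the replicate block (−0.23, FDR 0.0850) and with library size alone (FDR 0.301), in an FDR range of 0.0105 to 0.892. The 11 ring genes without a catalytic site thus had values from −0.60 to −0.23 between day 7 and day 1, beside −0.95 to −0.79 for Psmb5, Psmb6 and Psmb7, and the difference between these sets was not tested.

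Psma8 encodes an alpha subunit of the testis and was near the limit of detection, with 12 to 26 counts per heart. Its level was 0.588 TPM ± 0.132 (SD, n = 4) in sham, 0.50 ± 0.0976 on day 1 and 0.850 ± 0.149 on day 7. Its log2 fold change was −0.55 (FDR 0.117) on day 1 and −0.02 (FDR 0.959) on day 7 against sham, the latter of the opposite sign and called with log2(TPM + 1) (0.22, FDR 0.0423), in an FDR range of 0.0423 to 1.00. Between the days it was 0.53 (FDR 0.112) with TMM, and called with log2(TPM + 0.1) (0.66, FDR 0.0221) and log2(TPM + 1) (0.30, FDR 0.0156), in a range of 0.0156 to 0.284.

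The base of the 19S particle is a ring of 6 ATPases, encoded by Psmc1 to Psmc6, which unfold substrates. Psmc4 stood at 59.2, 75.1, 69.7 and 67.3 TPM in sham replicates 1 to 4, at 115, 115, 106 and 112 TPM on day 1, and at 98.7, 91.1, 89.4 and 99.9 TPM on day 7. The 3 groups were apart, with day 1 highest. Psmc4 rose by 0.41 (SE 0.0649, edgeR FDR 0.000268) on day 1, the single ATPase gene of 6 that passed, beside 22.0% of all genes, where 0 fell and 2 were higher without adjustment. On the scale of log2(TPM + 1) 5 of the 6 rose, beside 40.3% of all genes.

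With day 7 set against sham, 4 of 6 ATPase genes fell and 0 rose with TMM, beside 28.4% and 30.9% of all genes, and without adjustment 5 and 0, while 2 rose and 0 fell with log2(TPM + 1), beside 61.6% and 6.68%. Psmc6, at −0.26 (FDR 0.0596), was called without day 7 replicate 2 (−0.31, FDR 0.0363) or sham replicate 2 (−0.34, FDR 0.0168) and in DESeq2 (−0.28, FDR 0.0349), and its sign turned to 0.34, called, with log2(TPM + 1). Psmc3 fell by 0.64 (SE 0.0840, FDR 1.62e-05), and was −0.14 (FDR 0.264) with log2(TPM + 1), the upper end of its range of 1.78e-13 to 0.264. Psmc4 was −0.11 (FDR 0.156) with TMM and rose by 0.48 with log2(TPM + 1). From day 1 to day 7 all 6 fell with TMM, from −0.34 for Psmc6 to −0.68 for Psmc5, beside 22.8% of all genes, and 4 fell with log2(TPM + 1), beside 8.51%. Psmc6 was not called without day 1 replicate 1 (−0.32, FDR 0.0541) or day 7 replicates 1 (−0.28, FDR 0.0608) or 4 (−0.31, FDR 0.0599), which leaves 5 of 6. Psmc3 fell by 0.54, and was not called with log2(TPM + 1) (−0.25, FDR 0.0808), in a range of 1.79e-09 to 0.0826.

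Of the other 19S subunits, 11 match by symbol, proteins without ATPase activity that bind ubiquitin, hold the particle together or cut off ubiquitin chains. Psmd14, the deubiquitinase of the lid, stood at 29.2, 34.95, 35.9 and 35.5 TPM in sham replicates 1 to 4, at 63.9, 62.3, 59.3 and 66.0 TPM on day 1, and at 48.5, 58.3, 53.3 and 53.6 TPM on day 7. All AMI hearts lay above all sham hearts in TPM, and day 1 above day 7. With TMM, Psmd14 rose by 0.57 (SE 0.0693, edgeR FDR 5.32e-05) on day 1 against sham and fell by 0.54 (SE 0.0690, FDR 3.37e-05) from day 1 to day 7. By day 7, against sham, it was 0.04 (FDR 0.684), and 0.64 (FDR 2.30e-05) with log2(TPM + 1), within a range of 2.28e-05 to 0.955.

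Of the 11 genes, 4 rose and 0 fell on day 1 against sham, beside 22.0% and 19.9% of all genes, 4 and 0 also without adjustment, and all 11 rose with log2(TPM + 1), beside 40.3%. Besides Psmd14 these were Psmd11, at 0.53 (FDR 0.000466), Psmd3, at 0.32 (FDR 0.00105), and Psmd7, at 0.27 (FDR 0.00377), which were named after their values were seen. In TPM every day 1 heart lay above every sham heart for all 11 genes, and for 37.6% of all tested genes. Against sham, on day 7, 9 fell and 0 rose with TMM, beside 28.4% and 30.9% of all genes, 9 and 0 without adjustment, while 6 rose and 0 fell with log2(TPM + 1), beside 61.6% and 6.68% of all genes. Psmd13, at −0.19 (FDR 0.0358), was not called without day 7 replicates 2 (FDR 0.0711), 3 (FDR 0.0646) or 4 (−0.19, FDR 0.0804), or sham replicates 3 (FDR 0.0743) or 4 (FDR 0.109), which leaves 8, and its sign turned to 0.56, called, with log2(TPM + 1). The count was also 8 with no filter on low counts and with the replicate block. Psmd12, a lid scaffold, fell by 0.53 (SE 0.0768, FDR 3.83e-05) with TMM and was 0.11 with log2(TPM + 1), not called. Psmd8, another lid subunit, was 0.08 (FDR 0.317) with TMM, and 0.64 with log2(TPM + 1), called.

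Between day 7 and day 1, 10 of the 11 genes fell with TMM, beside 22.8% of all genes, from −0.34 for Psmd13, which was 0.15 and not called with log2(TPM + 1), to −0.89 for Psmd11, both named after their values were seen. The counts with log2(TPM + 1) were 8 lower and 1 higher, beside 8.51% and 35.3% of all genes. Of the exon bases of Psmd13, 10.1% overlap Sirt3 on the opposite strand, which had 544 to 1230 counts against 1256 to 2747. Psmd8 was the exception, at −0.02 (FDR 0.855), and it was 0.21 with log2(TPM + 1), called. In summed TPM the 11 genes came to 752 ± 27.6 (SD, n = 4) in sham, 1079 ± 45.9 on day 1 and 903 ± 2.35 on day 7.

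Summed levels show how the scale enters. The 14 constitutive core genes together had 2003 TPM ± 198 (SD, n = 4) in sham, 2676 ± 116 on day 1 and 2171 ± 64.3 on day 7. The 17 genes of the 19S subunits had 1333 TPM ± 67.5 in sham, 1830.0 ± 77.7 on day 1 and 1513 ± 34.3 on day 7. In TMM-normalized CPM the same core genes summed to 1349 ± 82.2, 1462 ± 38.4 and 1005 ± 33.7, and the 19S genes to 1815 ± 60.4, 2025 ± 42.5 and 1385 ± 50.3. Day 1 was thus highest on both scales, while day 7 lay above sham in mean TPM and below it in TMM-normalized counts.

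Activators open the gate of the core in place of the 19S cap. Psme1 and Psme2 encode the PA28 alpha and beta subunits, which interferon-gamma induces along with the immunoproteasome. Psme1 stood at 131, 137, 146 and 154 TPM in sham replicates 1 to 4, at 201, 149, 183 and 202 TPM on day 1, and at 145, 147, 143 and 212 TPM on day 7. Every pair of groups overlapped, and day 7 replicate 4 was the highest of all hearts.

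The log2 fold change of Psme1 was 0.03 (SE 0.126, edgeR FDR 0.847) on day 1 against sham, and 0.36 (FDR 0.0415) with log2(TPM + 1), in a range of 0.0397 to 0.9985. On day 7 it fell by 0.38 (SE 0.126, FDR 0.0189) with TMM, and its sign turned to 0.17 with log2(TPM + 1), not called. The fall was −0.51 (FDR 0.00195) without day 7 replicate 4 and was not called without day 7 replicates 1 (−0.32, FDR 0.0571) or 2 (−0.34, FDR 0.0523) or sham replicate 4 (−0.32, FDR 0.0568), in an FDR range of 0.00195 to 0.847. Against day 1 it fell by 0.41 (FDR 0.0154) with TMM, and was −0.19 (FDR 0.259) with log2(TPM + 1) and −0.28 (FDR 0.0990) with library size alone, in a range of 0.00209 to 0.260.

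Psme2 stood at 58.2, 74.1, 58.3 and 57.8 TPM in sham replicates 1 to 4, at 103, 84.1, 97.8 and 103 TPM on day 1, and at 92.6, 74.0, 71.6 and 133 TPM on day 7. Day 1 lay above sham, while day 7 spread over both groups. Psme2 rose by 0.35 (SE 0.126, edgeR FDR 0.0376) on day 1 against sham. The call was lost without day 1 replicates 1 (0.31, FDR 0.101), 3 (0.34, FDR 0.0767) or 4 (0.35, FDR 0.0580), or sham replicates 1 (0.32, FDR 0.0834), 3 (0.34, FDR 0.0799) or 4 (0.35, FDR 0.0701), in an FDR range of 0.00313 to 0.101.

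On day 7 Psme2 was 0.00 (FDR 0.990) against sham, −0.16 (FDR 0.154) without day 7 replicate 4, and 0.53 (FDR 0.0118) with log2(TPM + 1), in an FDR range of 0.0114 to 1.00. Against day 1 it fell by 0.35 (SE 0.125, FDR 0.0338), and by 0.52 (FDR 0.000806) without day 7 replicate 4. It was not called with library size alone (−0.22, FDR 0.240) or log2(TPM + 1) (−0.10, FDR 0.638), in an FDR range of 0.000806 to 0.639. That call was also lost without day 1 replicates 1 (−0.31, FDR 0.0886), 3 (−0.34, FDR 0.0719) or 4 (−0.35, FDR 0.0563), or day 7 replicates 1 (−0.32, FDR 0.0756), 2 (−0.30, FDR 0.0939) or 3 (−0.28, FDR 0.10). Of the stretches of 75 bases in Psme2, 22.9% also occur in Psme2b, which had 34 to 117 counts against 640 to 1428 for Psme2.

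Psme3 encodes PA28 gamma, a nuclear activator that works without ubiquitin. Psme3 stood at 38.7, 35.8, 32.4 and 29.0 TPM in sham replicates 1 to 4, at 45.5, 50.7, 48.8 and 43.0 TPM on day 1, and at 39.6, 39.6, 35.5 and 42.3 TPM on day 7. Day 1 lay above both other groups, which overlapped. It was 0.19 (SE 0.0842, edgeR FDR 0.0826) on day 1 against sham, called without day 1 replicate 4 (0.23, FDR 0.0462) or sham replicate 1 (0.26, FDR 0.0198) or with log2(TPM + 1) (0.46, FDR 0.00203), in an FDR range of 0.000499 to 0.211. At day 7 it fell by 0.31 (SE 0.0845, FDR 0.00598) against sham with TMM, with the opposite sign (0.21) with log2(TPM + 1), and by 0.50 (SE 0.0842, FDR 0.00029) against day 1.

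Psme4 encodes PA200, an activator linked to the breakdown of acetylated histones. Psme4 stood at 73.3, 57.0, 64.1 and 70.6 TPM in sham replicates 1 to 4, at 52.6, 61.3, 59.5 and 80.9 TPM on day 1, and at 69.9, 78.2, 72.4 and 64.0 TPM on day 7. All groups overlapped in TPM. With TMM Psme4 fell by 0.41 (SE 0.139, edgeR FDR 0.0280) on day 1 and by 0.50 (SE 0.139, FDR 0.00666) on day 7 against sham, and was −0.09 (FDR 0.639) between day 7 and day 1. With log2(TPM + 1) these values against sham were −0.07 and 0.11, neither called and the second of the opposite sign. The day 1 call was lost without day 1 replicates 1 (−0.33, FDR 0.0915), 2 (−0.40, FDR 0.0655) or 3 (−0.39, FDR 0.0670), or sham replicates 1 (−0.31, FDR 0.0918) or 4 (−0.37, FDR 0.0731), in an FDR range of 0.00673 to 0.673.

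Psmf1 encodes PI31, which inhibits the core in the test tube and serves as an adaptor for its transport. Psmf1 stood at 13.2, 14.4, 14.7 and 15.2 TPM in sham replicates 1 to 4, at 13.9, 12.5, 14.5 and 14.8 TPM on day 1, and at 16.2, 17.1, 18.4 and 18.4 TPM on day 7. In TPM day 7 lay above both other groups, which overlapped. With TMM Psmf1 fell by 0.33 (SE 0.0802, edgeR FDR 0.00459) on day 1 and by 0.27 (SE 0.0802, FDR 0.00909) on day 7 against sham, and was 0.06 (FDR 0.564) between day 7 and day 1, where log2(TPM + 1) gave 0.31 (FDR 0.00938), in a range of 0.00938 to 0.878. With log2(TPM + 1) the day 1 value was −0.04 (FDR 0.714), in a range of 0.000796 to 0.714, and the day 7 value had the opposite sign and was called, at 0.27 (FDR 0.0119), in a range of 0.00221 to 0.193.

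**Figure D5:**
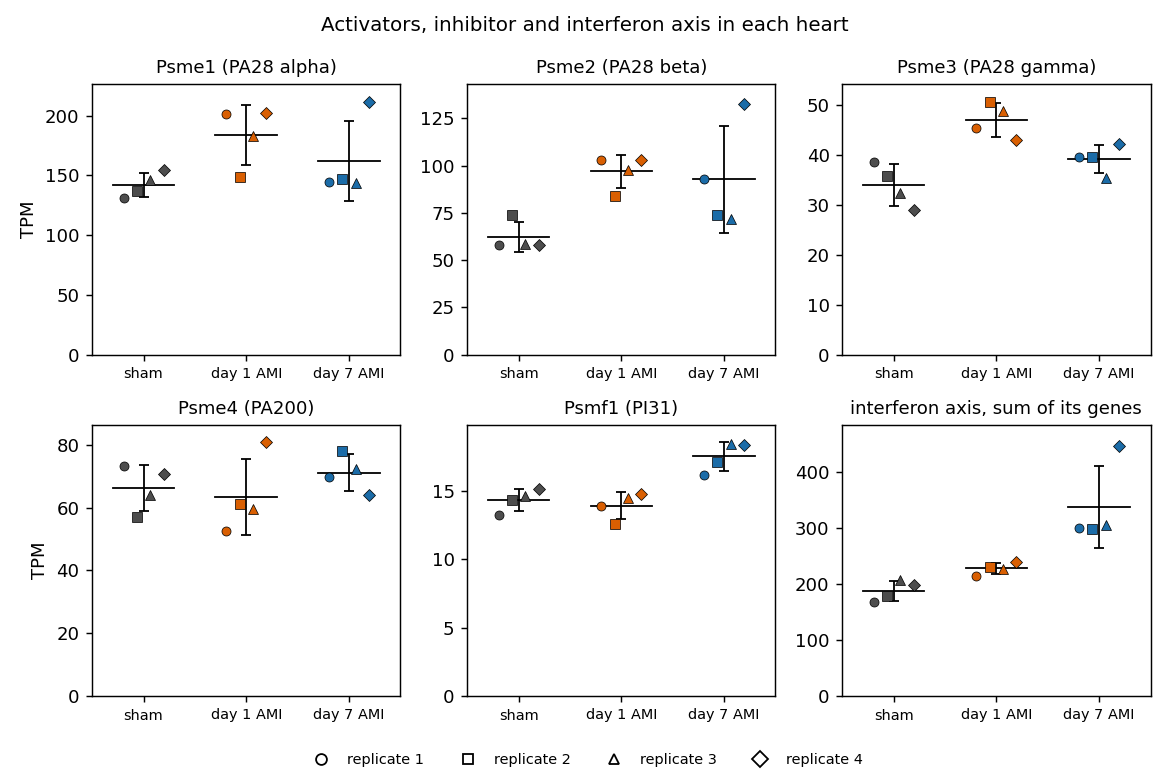
TPM (vertical axis) of Psme1 to Psme4, Psmf1 and the summed TPM of 9 genes of the interferon-gamma pathway by group (horizontal axis), where each point is a heart, its shape the replicate number, the line the mean and the bar 1 SD. Day 7 replicate 4 is highest for Psme1 (212), Psme2 (133) and the interferon sum (448), and Psmf1 is higher on day 7 than in sham in TPM while its TMM-normalized fold change is −0.27.

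New core particles are built on the chaperones encoded by Psmg1 to Psmg4. Psmg3 stood at 7.55, 14.1, 10.5 and 8.98 TPM in sham replicates 1 to 4, at 22.9, 23.3, 21.4 and 22.5 TPM on day 1, and at 16.9, 11.1, 12.1 and 12.6 TPM on day 7. Day 1 stood above both other groups, which overlapped. Psmg3 rose by 0.83 (SE 0.171, edgeR FDR 0.00173) on day 1 against sham and fell by 0.98 (SE 0.170, FDR 0.000332) from day 1 to day 7, ending at −0.16 (FDR 0.448) against sham. Of its exon bases 9.68% overlap Gm26938 on the same strand, which had 0 counts in every heart.

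Psmg2 was −0.18 (FDR 0.107) on day 1, and on day 7 it fell by 0.57 (SE 0.0851, FDR 5.13e-05) against sham with TMM and was −0.02 with log2(TPM + 1), not called. Against day 1 it fell by 0.40, and was not called with log2(TPM + 1) (−0.16, FDR 0.157), in a range of 5.04e-05 to 0.161. In all, 1 of the 4 genes rose and 0 fell on day 1, beside 22.0% and 19.9% of all genes, 2 fell and 0 rose on day 7 against sham, beside 28.4% and 30.9%, and 4 fell between day 7 and day 1, beside 22.8%, with TMM, and the unadjusted counts were the same in each. Between the days 1 fell with log2(TPM + 1), beside 8.51% of all genes, and 0 on day 7 against sham, beside 6.68%. Psmg4 (−0.43, FDR 0.0437 between the days) was not called without day 7 replicates 2 (−0.40, FDR 0.0986), 3 (−0.45, FDR 0.0631) or 4 (−0.39, FDR 0.105), or day 1 replicates 1 (−0.35, FDR 0.128), 2 (FDR 0.0629) or 3 (−0.38, FDR 0.111). Its day 7 value against sham was called without sham replicate 1 (−0.40, FDR 0.0445). With the replicate block 3 of the 4 genes fell between the days.

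The ATPase ring of the 19S base is assembled on the chaperones encoded by Psmd5, Psmd9 and Psmd10. Psmd5 rose by 0.29 (SE 0.0800, FDR 0.0104) on day 1 against sham and was 0.10 (FDR 0.311) on day 7, where it was called with library size alone (0.50, FDR 0.000131) and log2(TPM + 1) (0.45, FDR 0.00369), in an FDR range of 0.000131 to 0.605. Psmd9 was −0.16 (FDR 0.195) on day 1 and fell by 0.33 (SE 0.0976, FDR 0.00909) on day 7 with TMM, with the opposite sign (0.23) and no call with log2(TPM + 1). Of its exon bases 25.5% overlap Gm26745 on the opposite strand, which had at most 3 counts. Between day 7 and day 1, 0 of the 3 genes passed in edgeR with TMM and all hearts, beside 24.2% of all genes higher and 22.8% lower. Without adjustment 1 was lower, Psmd5 at −0.19 (FDR 0.0610). It was called in DESeq2 (−0.21, FDR 0.0346), with RLE factors (−0.21, FDR 0.041) and with only the groups compared (−0.20, FDR 0.045). Its FDR range was 0.0346 to 0.546.

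Of the pair that match by symbol alone, Psme2b rose by 0.65 (SE 0.203, FDR 0.0192) on day 1 against sham, a value in doubt because 60.2% of its stretches of 75 bases also occur in Psme2. By day 7 it was 0.38 (FDR 0.129), and called without day 7 replicate 3 (0.53, FDR 0.0233) or with log2(TPM + 1) (0.75, FDR 0.0024), in a range of 0.00214 to 0.329. Psmc3ip, at 2.51 to 5.57 TPM, was −0.42 (FDR 0.127) on day 1 and −0.27 (FDR 0.287) on day 7, and 21.2% of its exon bases overlap Mlx on the opposite strand, which had 394 to 869 counts against 44 to 80.

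Other genes of the pathway were taken from lists made by function. Of 16 proteasome partners outside the symbol rule, such as the ubiquitin receptor Adrm1 and the maturation factor Pomp, 2 rose and 2 fell on day 1, 0 rose and 13 fell on day 7 against sham, and 0 rose and 10 fell between day 7 and day 1, with median log2 fold changes of 0.03, −0.36 and −0.31, and the counts of 0 were 0 without adjustment as well in edgeR. Of all tested genes 22.0% rose and 19.9% fell on day 1, 30.9% and 28.4% on day 7 against sham, and 24.2% and 22.8% between the days. The 4 most abundant in CPM were AI314180, at −0.43 on day 1 and −0.68 on day 7 against sham, Rad23b, at 0.24 (not called) and −0.26, Zfand5, at −0.23 (not called) and −0.38, and Ubqln4, at −0.03 (not called) and −0.53. Without day 7 replicate 4 the day 7 count against sham was 11 lower, and 9 were lower between day 7 and day 1.

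Of 6 regulators of proteasome genes, 0 rose in any comparison in edgeR, adjusted or not, and 1, 3 and 2 fell on day 1, on day 7 against sham and between the days, with medians of −0.04, −0.14 and −0.08, beside 19.9%, 28.4% and 22.8% of all genes. Without day 7 replicate 4, 2 fell on day 7 against sham. Nfe2l1, the factor that drives proteasome genes when the proteasome is impaired, stood at 182, 273, 260.4 and 223 TPM in sham replicates 1 to 4, at 237, 233, 260.6 and 279 TPM on day 1, and at 253, 173, 218 and 206 TPM on day 7. The groups overlapped in TPM. With TMM Nfe2l1 fell by 0.26 (FDR 0.0250) on day 1 and by 0.63 (FDR 2.65e-05) on day 7 against sham. Keap1, the inhibitor of Nfe2l2, fell by 0.59 (FDR 9.19e-05) on day 7, and Nfe2l2 itself was 0.14 (FDR 0.313) and 0.19 (FDR 0.145). Ddi2, the protease that activates the Nfe2l1 protein, was −0.01 (FDR 0.899) and 0.10 (FDR 0.291).

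Of 9 genes on the interferon-gamma route to the immunoproteasome, 8 were tested, since Ifng itself had 0 to 15 counts per heart. On day 1 against sham 2 rose and 2 fell, on day 7 against sham 6 rose and 2 fell, and between the days 3 rose, with medians of 0.19, 0.47 and 0.35. All genes gave 22.0% higher and 19.9% lower, 30.9% and 28.4%, and 24.2% and 22.8%. Nlrc5, the activator of MHC class I genes, rose by 1.28 on day 1 and 2.04 on day 7, and Irf8 by 1.15 and 1.70.

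Leaving out day 7 replicate 4 changed these values. Nlrc5 then rose by 1.43 on day 7. The counts became 3 higher and 2 lower on day 1, 4 higher and 0 lower on day 7, and 2 higher between the days, with medians of 0.32 on day 7 and 0.14 between the days. Without it Irf1 (0.21, FDR 0.212), Jak2 (0.22, FDR 0.118), Ifngr2 (−0.37, FDR 0.0590) and Jak1 (−0.18, FDR 0.0836) were not called on day 7. Without sham replicate 2, 5 rose on day 7 against sham. The receptor gene Ifngr1 rose by 0.45 on day 7, while Ifngr2 fell by 0.40 on day 1 and 0.38 on day 7 and Jak1 by 0.21 and 0.18, with TMM. The summed TPM of the 9 genes was 168, 179, 207 and 198 in sham replicates 1 to 4, 215, 231, 226 and 239.7 on day 1, and 299.9, 298, 305 and 448 on day 7, and its part in the rise of Psmb8, Psmb9 and Psmb10 was not tested.

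The peptides that the immunoproteasome makes are loaded on MHC class I, and of 11 genes of that supply line 6 rose and 0 fell on day 1, 7 rose and 1 fell on day 7 against sham, and 2 rose and 2 fell between the days, with medians of 0.67, 0.61 and 0.31. The shares of all genes were 22.0% and 19.9%, 30.9% and 28.4%, and 24.2% and 22.8%. B2m, the light chain, rose by 0.67 (FDR 0.0275) and 1.67 (FDR 2.76e-05) against sham. The heavy chain genes H2-K1 and H2-D1 rose by 1.53 and 1.25 on day 7, and the peptide transporter gene Tap1 by 1.43. Calr, the chaperone calreticulin, rose by 0.69 on day 1 and was −0.03 (FDR 0.897) on day 7. Without day 7 replicate 4, B2m, H2-K1 and H2-D1 rose by 1.45, 1.21 and 1.06 on day 7 and Tap1 by 0.99, just under the fold of 2. The medians were then 0.37 on day 7 and 0.18 between the days, where 1 rose. Without sham replicate 2, 5 rose on day 1.

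Upstream of the proteasome, 15 genes of ubiquitin and of muscle ubiquitin ligases were followed: 3 rose and 5 fell on day 1, 2 rose and 11 fell on day 7 against sham, and 1 rose and 8 fell between the days, with medians of −0.02, −0.40 and −0.32. Over all genes 22.0% rose and 19.9% fell, then 30.9% and 28.4%, and 24.2% and 22.8%. Trim54, which encodes a muscle ring-finger ligase, fell by 0.33 on day 1 and by 1.38 on day 7 against sham, and by 1.04 between the days. Without day 7 replicate 4 the day 7 values of Trim54 were −1.28 against sham and −0.94 against day 1. Rps27a, which encodes ubiquitin fused to a ribosomal protein, rose by 0.58 and 0.22 against sham, the second not called without day 7 replicate 4 (0.22, FDR 0.0686). Fbxo40, a muscle ligase gene, fell by 0.72 on day 1 and 0.40 on day 7, and Uba1, the main ubiquitin-activating enzyme, was 0.18 higher on day 1 and 0.23 lower on day 7, both against sham, the first not called without day 7 replicate 4 (0.18, FDR 0.0622). Without that heart 2 rose on day 1, and 1 rose and 9 fell on day 7 against sham. Without sham replicate 2, 2 rose on day 1, and 9 fell between the days.

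Whole hearts mix cell types, and in bulk RNA fewer cells of a type and less RNA per cell cannot be told apart. The marker counts below stand beside 22.0% of all genes higher and 19.9% lower on day 1, 30.9% and 28.4% on day 7 against sham, and 24.2% and 22.8% between the days. Of 10 leukocyte markers, 10 rose on day 1 and 10 on day 7 against sham, and 2 rose between the days, where 1 also fell without day 7 replicate 4. Their summed TPM, with Tyrobp most abundant, was 128, 169.9, 96.4 and 83.1 in sham replicates 1 to 4, 464, 622, 384 and 449 on day 1, and 792, 485, 478 and 815.5 on day 7. The sum was highest in day 7 replicate 4, as were Psmb8, Psmb9 and Psmb10. In day 7 replicate 1 the leukocyte sum was nearly as high, at 792 TPM. Psmb8, Psmb9 and Psmb10 together had 168 TPM in that heart, against 324 TPM in replicate 4. The part of leukocytes in the result was not tested.

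Of 12 monocyte and macrophage markers, 10 rose on day 1, 12 rose on day 7 against sham, and 5 rose and 1 fell between the days, while all 12 rose on day 1 without sham replicate 2. Their summed TPM, with Lyz2 most abundant, was 409, 568, 349 and 300.3 in sham replicates 1 to 4, 779.7, 1075, 712 and 939.9 on day 1, and 2038, 1395, 1256 and 1925 on day 7. Of 10 neutrophil markers 7 rose on day 1, 2 rose and 2 fell on day 7 against sham, and 7 fell between the days. When day 7 replicate 4 was left out, 4 fell on day 7 against sham and 9 between the days. Without sham replicate 2, 3 rose and 0 fell on day 7 against sham, with 1 lower without adjustment, and 9 fell between the days. Their sum, with Lcn2 most abundant, was 120.1, 263, 14.8 and 16.0 TPM in sham replicates 1 to 4, 449, 848, 376 and 512 on day 1, and 37.5, 21.7, 34.2 and 198 on day 7.

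Of 11 T and NK cell markers, 9 were tested, and 3 rose on day 1, 8 rose on day 7 against sham and 3 rose between the days. With 10 tested, 1 rose on day 1 without sham replicate 2, and 2 rose between the days without day 7 replicate 4. Their sum, with Nkg7 most abundant, was 3.62, 3.33, 4.08 and 3.36 TPM in sham replicates 1 to 4, 15.0, 5.06, 12.3 and 4.91 on day 1, and 14.3, 11.5, 18.2 and 25.5 on day 7. Of 8 B cell and dendritic cell markers 7 were tested, and 1 rose and 1 fell on day 1, 2 rose on day 7 against sham, and 1 rose between the days. The day 7 count against sham was 1 without sham replicate 2, and 0 fell on day 1, with 1 lower without adjustment. Their sum, with Cd79b most abundant, was 2.74, 2.94, 5.89 and 3.86 TPM in sham replicates 1 to 4, 5.22, 5.88, 6.77 and 3.9 on day 1, and 9.68, 7.86, 9.37 and 10.9 on day 7.

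Of 10 cardiomyocyte markers, 9 fell on day 1 and 9 on day 7 against sham, and 6 fell between the days. Their summed TPM, with Myl2 most abundant, was 74250, 73120, 84000 and 82440 in sham replicates 1 to 4, 67960, 59940, 67500 and 67540 on day 1, and 58280, 53640, 61840 and 58840 on day 7. Psmb5, Psmb6 and Psmb7 fell on day 7 with TMM and did not pass the test on day 1, and the part of cardiomyocytes in that result was not tested.

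Of 7 fibroblast markers 5 rose and 1 fell on day 1, 7 rose on day 7 against sham, or 6 without day 7 replicate 4, and 6 rose between the days. Their sum, with Col3a1 most abundant, was 574, 583, 478 and 500.4 TPM in sham replicates 1 to 4, 676, 880.1, 679.5 and 909 on day 1, and 6487, 4849, 3584 and 5075 on day 7. Of 6 endothelial markers 3 fell on day 1, 4 rose on day 7 against sham, or 3 without sham replicate 2, and 6 rose between the days, with a sum, Cdh5 most abundant, of 228, 284, 275 and 256 TPM in sham replicates 1 to 4, 256, 275, 269 and 269 on day 1, and 544, 489.8, 508 and 539.8 on day 7. The 5 proliferation markers all rose in each comparison, or 4 on day 1 without sham replicate 2, with a sum, Cdk1 most abundant, of 4.92, 4.67, 2.22 and 1.81 TPM in sham replicates 1 to 4, 10.3, 13.4, 13.9 and 13.3 on day 1, and 127, 91.4, 72.0 and 108 on day 7.

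Of 5 erythroid markers 3 fell on day 1 and 3 on day 7 against sham, and 0 passed between the days in edgeR, adjusted or not. These falls rest on sham replicate 2: without it 0 fell on either day in edgeR, adjusted or not. All 5 fell on day 7 against sham without day 7 replicate 4. Their sum, with Hbb-bs most abundant, was 3635, 15170, 1617 and 1840 TPM in sham replicates 1 to 4, 1645, 2206, 2542 and 2497 on day 1, and 3190, 1172, 2515 and 4820 on day 7. No gene of these lists was at 0 in every heart, and the part of these cell types in the results on the proteasome genes was not tested.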

How the data were processed

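The deposited files give a whole-number count and a TPM for each of 53801 genes in 12 heart libraries. The authors used CASAVA 1.8 for reads, Cutadapt for trimming and STAR 2.4.0j for alignment to Ensembl GRCm38 (mm10). The TPM was computed by the authors with RSEM, whose version is not given. The tool that made the deposited count, the strand counted and the handling of multiply mapping reads are not given in the sources used here. The count was used for tests and the TPM for levels per length.

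Members were genes whose symbol is Psm, a letter from a to g and a number, without 4 pseudogene copies. The members and the lists were chosen with earlier results of these data known. Genes named are 11 fixed members (the catalytic and inducible subunits, the activators and the inhibitor), each member past both thresholds, and in each other role the member with the largest and smallest log2 fold change against sham on each day. Of each pathway list, genes past both thresholds and up to 4 with the highest mean CPM are named, and of each marker list the most abundant gene and genes at 0. Some genes that this rule names are not reported here. The listed symbols Shfm1, Paaf1 and Ecpas are not used in the files, which hold the first and last of these genes as Sem1 and AI314180.

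Counts were tested in edgeR 4.0.16 (R 4.3.3, quasi-likelihood, TMM, filterByExpr, prior count 2) in a single fit of the 12 libraries, with Benjamini-Hochberg adjustment over 15306 genes at an FDR of 0.05 and, where stated, a fold of 2. Ratios used log2 of TPM plus 0.1 and an exact permutation of hearts. The alternatives were size factors of DESeq2 (RLE), library size alone, mitochondrial genes left out, DESeq2 1.42.0, no filter on low counts, limma 3.58.1 on log2(TPM + 1) and log2(TPM + 0.1), the groups compared alone, a replicate block, each heart left out, TMM-normalized counts for ratios, and counts per base of exon for the share. Python 3.11.15 with pandas 2.3.3, numpy 2.4.6 and matplotlib 3.10.9 made the tables and figures. The code was tested on simulated data. Lists covered proteasome partners, regulators of proteasome genes, the interferon-gamma route, MHC class I supply, ubiquitin and muscle ligases, and markers of leukocytes, neutrophils, monocytes and macrophages, T and NK cells, B and dendritic cells, cardiomyocytes, fibroblasts, endothelium, erythroid cells and proliferation.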

Additional observations from a re-analysis of the deposited data

Results flagged for a closer look

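In 11 of 159 groups of 4 hearts a sample stood far from the others, by the gap to the nearest heart as a part of the group's range. All 11 were in log2 CPM of a member, while the 159 also hold groups of other quantities. Chance flags about 1 in 20 groups, which is 8 of 159. Day 7 replicate 4 was the sample in 3 of them: highest for Psmb9 (gap 0.966, at 4.94 against 3.66 to 3.70) and Psme1 (0.846, at 6.73 against 6.21 to 6.29), and lowest for Psmd8 (0.871). Sham replicate 1 was lowest for Psmb10 (0.938, at 5.13 against 5.41 to 5.43) and highest for Psmd11 (0.858). Sham replicate 2 was lowest for Psmd6 (0.847) and Psmf1 (0.862). Day 1 replicate 4 was highest for Psmc3 (0.8292), day 7 replicate 1 highest for Psmg3 (0.924), day 7 replicate 2 lowest for Psma8 (0.843) and day 7 replicate 3 lowest for Psmd10 (0.917).

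For 20 of the 30 named genes the day 7 and day 1 effects against sham differed by the edgeR test of day 7 against day 1. This is a difference between time points. Of all tested genes 24.2% were higher and 22.8% lower in that comparison. Part of the named genes was picked for the largest or smallest fold change of its role in these data, so the count does not stand for all members. Psmb9 was higher on day 7, by 0.626 in log2 units. The values of the catalytic genes Psmb5, Psmb6 and Psmb7 were −0.952, −0.793 and −0.823. Those of the activators Psme1, Psme2 and Psme3 were −0.410, −0.349 and −0.499. Among ring genes, Psma3, Psma5 and Psma6 had −0.433, −0.591 and −0.495, and Psmb1, Psmb2, Psmb3 and Psmb4 had −0.279, −0.234, −0.600 and −0.551. Among genes of the regulatory particle, Psmc3 and Psmc4 had −0.539 and −0.523, and Psmd12 and Psmd14 had −0.587 and −0.536. The assembly genes Psmg2 and Psmg3 had −0.396 and −0.985. With log2(TPM + 1) the value of Psmb2 was 0.0154, of the opposite sign, and those of Psma3, Psmb1, Psmb4, Psmc3, Psme1, Psme2 and Psmg2 were not called, at −0.212, −0.0518, −0.151, −0.249, −0.194, −0.104 and −0.161. The values of Psmb2, Psmb9 and Psme2 were also not called without some single hearts, such as Psmb9 without day 7 replicate 4 (0.190).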

How the results depend on the processing

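Of the log2 fold changes of the 30 named members under settings other than leaving out a heart, 655 had no change of call, 44 reversed, 63 newly passed the threshold and 48 no longer passed it. With a heart left out, 1036 had no change of call, 7 newly passed and 37 no longer passed. Of those without a change of call, 30 and 24 changed sign and were called in neither fit. Of the counts of members, 82 stayed within 1.5 times and 26 moved under other settings, and 126 and 18 with a heart left out. The cause was not tested except where named.

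With library size alone, which lets all genes shift up, 36 members were higher on day 1 against sham, 0 lower and 2 higher past the fold, beside 41.1% of all genes higher and 6.93% lower, and on day 7 against sham 12 were higher and 3 lower, beside 53.8% and 10.8% of all genes. Reversed values were Psma6 on day 1 (0.231) and, on day 7 against sham, Psme1 (0.0312), Psme3 (0.0967), Psmf1 (0.128), Psma3 (0.374), Psma5 (0.306), Psmb1 (0.227), Psmc4 (0.286) and Psmd9 (0.0641).

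With limma on log2(TPM + 0.1), 38 members were higher on day 1 against sham, 0 lower and 2 higher past the fold, beside 41.8% of all genes higher and 4.98% lower. On day 7 against sham 23 were higher and 0 lower, beside 61.8% and 6.59% of all genes, and between the days 4 were higher and 20 lower, beside 34.1% and 8.28%. Reversed values were Psma6 on day 1 (0.282) and, on day 7 against sham, Psme1 (0.168), Psme3 (0.212), Psme4 (0.106), Psmf1 (0.286), Psma3 (0.501), Psma5 (0.463), Psma6 (0.0175), Psmb1 (0.376), Psmb2 (0.145), Psmb3 (0.0870), Psmb4 (0.151), Psmc4 (0.485), Psmd9 (0.252) and Psmd12 (0.112). Between the days they were Psmb2 (0.0155) and Psmd8 (0.211).

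With limma on log2(TPM + 1), 38 members were higher on day 1 against sham, 0 lower and 2 higher past the fold, beside 40.3% of all genes higher and 4.82% lower. On day 7 against sham 24 were higher and 0 lower, beside 61.6% and 6.68% of all genes, and between the days 4 were higher and 20 lower, beside 35.3% and 8.51%. Reversed values were Psma6 on day 1 (0.281) and, on day 7 against sham, Psme1 (0.167), Psme3 (0.206), Psme4 (0.105), Psmf1 (0.270), Psma3 (0.498), Psma5 (0.456), Psma6 (0.0173), Psma8 (0.221), Psmb1 (0.374), Psmb2 (0.144), Psmb3 (0.0866), Psmb4 (0.150), Psmc4 (0.480), Psmd9 (0.230) and Psmd12 (0.111). Between the days they were Psmb2 (0.0154) and Psmd8 (0.209).

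With DESeq2, with RLE factors and with no filter, 1 member was lower past the fold between the days in place of 0. With RLE factors, with mitochondrial genes left out and with the groups compared alone, 0 were higher between the days in place of 1. With the replicate block that count was also 0, and the others were 12 higher and 2 lower on day 1, beside 20.5% and 17.9% of all genes, 3 and 30 on day 7, beside 29.98% and 27.2%, and 35 lower between the days, beside 21.4%. To look for pairing, each gene's deviation from its group mean in log2 CPM was correlated between same-numbered libraries of different groups. These correlations of deviations were −0.244 to 0.229, over 0.1 in 4 of 12 pairs. With TMM-normalized counts the day 1 ratios of Psmb9 to Psmb6 (0.495) and Psmb10 to Psmb7 (0.309) passed the threshold. With counts per base of exon the day 1 share was 14.9% in place of 16.3%.

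With a heart left out, the count lower on day 1 was 1 to 2, the count higher past the fold 0 to 1 on day 1 and 0 to 2 on day 7, and between the days the count higher was 0 to 1 and the count lower past the fold 0 to 2. The ratio of Psmb8 to Psmb5 differed by 0.657 to 0.831 on day 1 and by 0.903 to 1.29 between the days. That of Psmb9 to Psmb6 differed by 0.251 to 0.564 on day 1 and by 1.13 to 1.70 between the days, and that of Psmb10 to Psmb7 by 0.663 to 1.04 between the days. The day 1 difference of Psmb9 to Psmb6 passed without sham replicate 1. Without any 1 day 1 heart, that of Psmb8 to Psmb5 on day 1 and those of all 3 pairs between the days did not pass. These differences stayed about as large, at 0.723 to 0.789 for Psmb8 to Psmb5 on day 1. Between the days they were 1.12 to 1.18, 1.44 to 1.58 and 0.818 to 0.94 for the pairs of Psmb8, Psmb9 and Psmb10. With a heart left out, only the ratio tests that involve its group were adjusted together. An exact p of 4 hearts against 3 cannot go below 0.0286.

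The depth limits what can be said of Psmb11, at 0 counts, and of Psma8, at 12 to 26. Counting strand and multiply mapping reads are not given, so members that share exon bases or sequence with other genes are uncertain, among them Psma5, Psmb5, Psmb7, Psmb9, Psmc3ip, Psmd9, Psmd13, Psme2 and Psme2b. Groups hold 4 hearts, cell types are mixed, and scaling shifts all genes together. On day 7 against sham 42 of 49 members lay below the median of all genes with library size alone, and 36 with log2(TPM + 1).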
